A study of Lotus japonicus with 6 samples.

Results

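The 7Methyl code names 9 genes on a custom Lotus japonicus microarray, read here from the code alone as methyltransferases that act on the 7-hydroxyl group of isoflavonoids. The members were taken as every non-control spot whose name starts with 7Methyl, which gave 9 of 2881 genes, with 18 of 6358 probes and 90 of 14642 non-control spots per array. Each gene carried 2 probes and each probe 5 spots. The names run from 7Methyl2 to 7Methyl10, and a further name spelt 7Methy1 falls outside the rule. Leaves of the accession MG20, grown in vitro on MS medium at reduced strength, gave total RNA for 6 arrays of 1 colour. The 3 wild type arrays (wild type MG20) were compared with 3 independent transgenic lines of MG20 labelled as overexpressing LjMyb14 from the Lotus ubiquitin promoter, 1 array per line. No vector-only control is among these samples, and the labels give no plant age.

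O-methyltransferases of this kind move a methyl group from S-adenosylmethionine to a hydroxyl group of a phenolic ring. In legumes, methylated isoflavones and their reduced products, among them the Lotus phytoalexin vestitol, are made in response to pathogens. Enzymes first described as isoflavone 7-O-methyltransferases, in alfalfa, belong to a group that includes those placing the methyl group on the other end of the molecule, on the B ring, so the name of such a gene does not fix the position that its enzyme methylates. The files and labels describe none of the 9 genes beyond its name, and none was found in the reference gene table, so no sequence or enzyme activity is attached to them.

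The names place 5 members on chromosome 2. Of these, 4 share 1 identifier, CM0058, as genes 220 (7Methyl4), 240 (7Methyl5), 260 (7Methyl9) and 300 (7Methyl3). The name spelt 7Methy1 is gene 270 under the same identifier. 7Methyl2 is gene 600 under the identifier CM0191, which PKR1, PKR4, PKR5 and PKR3 also carry, as genes 390, 400, 410 and 480. The names do not give the distance between genes that share an identifier. The other 4 members, 7Methyl6, 7Methyl7, 7Methyl8 and 7Methyl10, carry an assembly identifier (LjSGA) with no chromosome. No other name on the array shares a locus with a member.

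Levels below are processed intensities in array units or, where named as log2, the log2 of that intensity over the 75th percentile of its array. Differences between groups are on a log2 scale. The wild type arrays are described as biological replicates, yet the difference between arrays 1 and 3 had a variance of 0.545 times the noise between spots of a probe (1.13 times by medians). The other 5 pairs within a group gave 2.27 to 8.6 times (12.6 to 87.1 by medians). Arrays 1 and 3 were therefore averaged and counted as 1 sample, so n is 2 for wild type and 3 for the lines, and p-values measure the spread between these samples only. The 75th percentile lay between 364.1 and 404.5 on the 6 arrays, and 71.7% to 78% of spots were well above background. The median log2 level of the spike-in control spots was 0.09, -0.07 and 0.25 on wild type arrays 1 to 3. It was 0.14, 0.81 and -0.37 in lines 1 to 3, and the cause of this spread was not tested. At the tested LjMYB14 probe the log2 difference, lines minus wild type, was 0.11 (limma adjusted p = 0.939), near background. LjMYB76a was higher in the lines by 7.54 on the log2 scale, or 186-fold (limma adjusted p = 0.000189). The lines are therefore called by their label with no statement on LjMYB14 itself. No name on the array starts with the photosynthesis codes RBCS, LHC or CAB, so the leaf could not be checked by them.

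Of the 18 member probes, 12 passed the filter, which asks that at least 0.5 of a probe's spots be well above background on at least 3 of the 6 arrays. These probes represent 8 genes, 4 of them by both probes. The share that passed was 66.7% of the member probes and 79.3% of all 6358 probes. 9 member probes of 6 genes were well above background on all 6 arrays. 7Methyl6 was the 1 member with no tested probe. Its brighter probe gave log2 levels of -5.73, -6.36 and -5.90 on wild type arrays 1 to 3 and -6.53, -6.37 and -7.27 in lines 1 to 3. That signal exceeded background clearly on 1 wild type array and in none of the lines, and wild type array 2 and line 2 were nearly equal, so no fold is given. The dimmer 7Methyl6 probe was well above background on none of the 6 arrays. The same held for both probes of the name spelt 7Methy1, with log2 levels between -8.28 and -6.81, so signal of this gene in the CM0058 group was not detectable over background.

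None of the 12 tested member probes and none of the 8 genes at their brightest probe passed an adjusted p of 0.05 (limma, Benjamini-Hochberg over 5039 probes), where 3.43% of all tested probes and 3.30% of all genes did. At an unadjusted p under 0.05 there were 2 of 12 member probes, against 19.9% of all probes, and 1 of 8 genes, against 19.5% of all genes. Both of these probes belong to 7Methyl2. The median log2 fold change was -0.12 over the 8 genes, against -0.09 over all 2487 genes tested, and it was -0.14, -0.24 and -0.08 in lines 1, 2 and 3. A positive fold change was found for 2 of the 8 genes, against 42.1% of all. The 3 lines lay wholly above the 3 wild type arrays for 1 gene, against 15.4% of all genes, and wholly below for 2, against 21.1%. Together these are 3 of 8, near the 36.5% found over all genes. For 7 of the 8 genes the 95% confidence interval at the brightest probe lay within 2-fold in either direction, that is between -1 and 1, and 7Methyl2 was the exception.

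**Figure D1:**
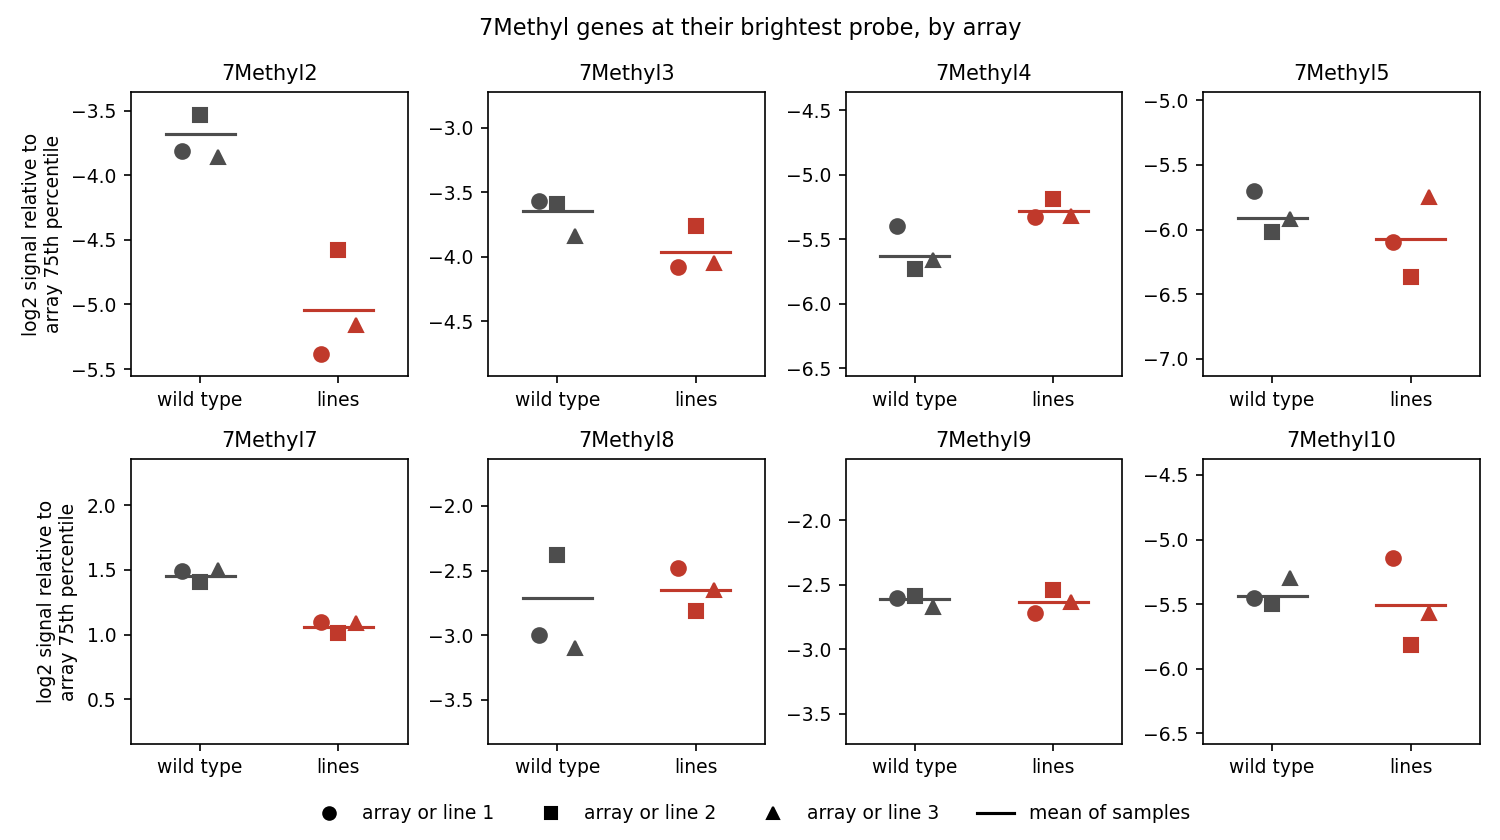
The vertical axis gives the log2 level over the array's 75th percentile, with every panel spanning the same height, and points show each wild type array and each line at the brightest probe of the 8 tested 7Methyl genes. Bars are group means with wild type arrays 1 and 3 counted as 1 sample. The groups stand apart for 7Methyl2 (lines lower), 7Methyl7 (lines lower) and 7Methyl4 (lines higher), and the 7Methyl2 difference is -1.35.

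7Methyl2 had the largest difference among the tested members. The brighter probe gave processed intensities of 27.6, 31.4 and 26.8 on wild type arrays 1, 2 and 3 and 9.7, 16.4 and 11.3 in lines 1, 2 and 3. All lines lay below all wild type arrays, and line 2 was the highest of the lines. The mean log2 level of wild type was -3.68 ± 0.21 (SD, n = 2) and that of the lines -5.04 ± 0.42 (SD, n = 3). The log2 difference was -1.35 with a standard error of 0.30 and a 95% confidence interval from -2.11 to -0.60. The unadjusted p was 0.00511 and the adjusted p 0.0863 (limma), so the difference did not pass the threshold. At this probe the single spots were also separate, though spots repeat the measurement on an array and are not further samples. Leaving out outlier-flagged spots, the 13 wild type spots lay between 23.7 and 34 and the 15 spots of the lines between 6.22 and 20.1.

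The other 7Methyl2 probe, which samples the same gene a second time, gave the same order of groups. Its intensities were 16.4, 23.7 and 18.5 on the wild type arrays and 9.7, 13.2 and 10.1 in the lines, with no overlap between the groups of arrays. Its single spots overlapped, lying between 14.1 and 29.1 in wild type and between 8.19 and 15.1 in the lines. The log2 difference was -0.98 (standard error 0.28, 95% confidence interval -1.67 to -0.29, unadjusted p = 0.0135, adjusted p = 0.14). Over the 6 arrays both probes had a Pearson correlation of 0.97, which includes the difference between the groups. Both probes were well above background on every array, but the signal in the lines was low. In lines 1, 2 and 3 the brighter probe lay at log2 levels of -5.38, -4.58 and -5.16. The lowest spot well above background on those arrays was at -6.37, -6.29 and -6.16.

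The call on 7Methyl2 depended on how the arrays were counted and on 1 line. With all 6 arrays counted singly the brighter probe gave -1.30 with an adjusted p of 0.0212, and without line 2 it gave -1.59 with an adjusted p of 0.0248. Calls rose over the whole array as well, from 173 of 5039 probes to 639 and 439. All arrays shared 1 slide, on which row 2 held wild type and line 1 while row 1 held the other lines. Row 1 held no wild type array. With the row as a block, or in row 2 alone, the fit therefore compares only line 1 with wild type. That difference was -1.70 in both fits, and since each rests on 1 line, no p-value is given. With normexp background correction, which adds an offset and shrinks low signals, the difference over all samples was -0.38 (adjusted p = 0.123).

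At 7Methyl7 the 2 probes gave different results. The brighter probe gave intensities of 1090, 970 and 1090 on wild type arrays 1, 2 and 3 and 866, 783 and 855 in lines 1, 2 and 3. The groups did not overlap, and arrays of a group differed by at most 0.09 on the log2 scale. Mean log2 levels were 1.45 ± 0.06 (SD, n = 2) and 1.06 ± 0.05 (SD, n = 3), a log2 difference of -0.39, or 1.31-fold lower in the lines. limma, which draws each probe's variance toward that of all probes, gave it a standard error of 0.18, a 95% confidence interval from -0.85 to 0.07 and an adjusted p of 0.315. The dimmer 7Methyl7 probe, also well above background on all arrays, did not show this separation. It gave intensities of 67.7, 53.8 and 63.3 in wild type and 69, 44.9 and 83 in the lines, with line 2 lowest and line 3 highest of all 6 arrays. Its difference was 0.01 (95% confidence interval -0.74 to 0.76), and the correlation between the 2 probes over the 6 arrays was 0.19.

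**Figure D2:**
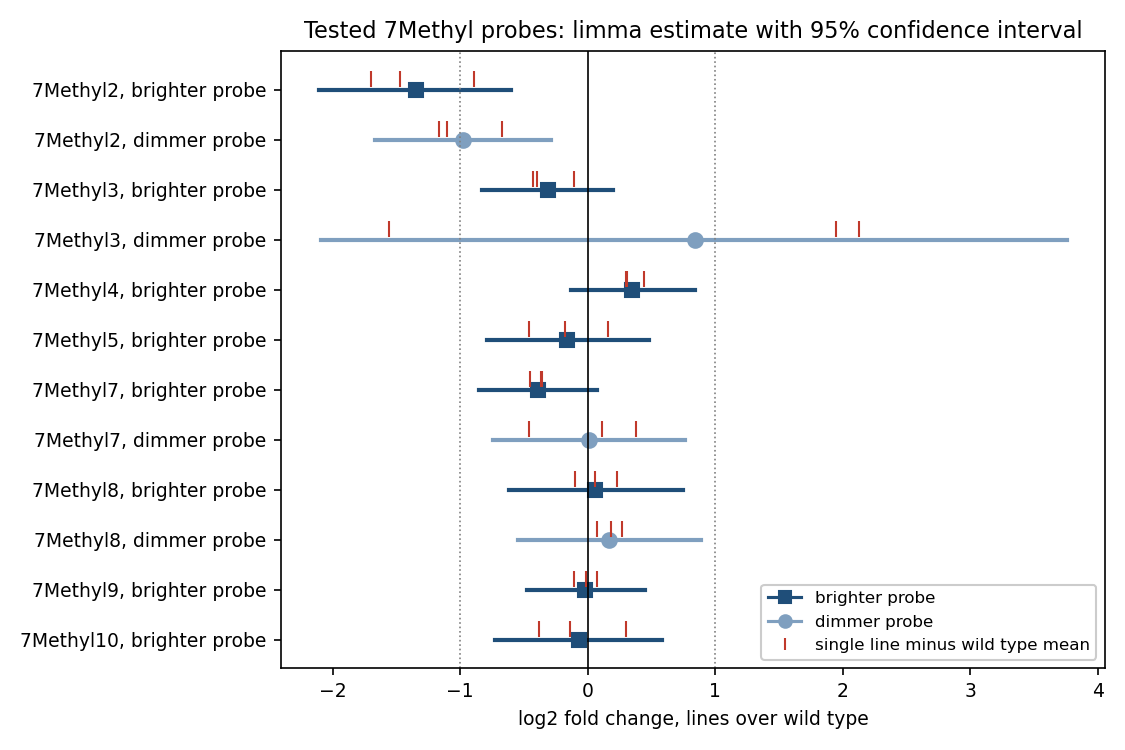
Log2 fold changes of lines over wild type (horizontal axis) are shown for the 12 tested 7Methyl probes, with squares for the brighter and circles for the dimmer probe of a gene, bars for the 95% confidence interval from limma, and red ticks for each line minus the wild type mean. Dotted lines mark 2-fold. The intervals of both 7Methyl2 probes leave out 0 before adjustment, and the dimmer 7Methyl3 probe has the widest interval, from -2.09 to 3.76.

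Among the CM0058 members, the probes of 7Methyl3 gave opposite signs. At the brighter probe, intensities were 32.6, 30.3 and 27 on wild type arrays 1 to 3 and 23.9, 28.8 and 24.3 in lines 1 to 3. Line 2 lay within the wild type range and lines 1 and 3 below it, and the log2 difference was -0.31 (95% confidence interval -0.83 to 0.20, adjusted p = 0.482). At the dimmer probe, intensities were 14.4, 8.27 and 14.1 in wild type and 51.2, 3.81 and 44.8 in the lines. Lines 1 and 3 were above every wild type array, by 2.13 and 1.95 over the wild type mean on the log2 scale, and line 2 was below every wild type array. Line 2 was not well above background at this probe, so the size of its difference is not given.

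The split at that probe was present in the single spots of the lines, while the wild type spots were uneven. The spots lay between 33 and 73.2 in line 1 and between 26.5 and 61 in line 3, and all were well above background. In line 2 they lay between 1.27 and 10.9, with 2 of 5 well above background. In wild type the unflagged spots ran from 11 to 17.3 on array 1, from 6.41 to 9.28 on array 2 and from 3.56 to 52.6 on array 3. One spot position read 73.6 on array 1 and 26.6 on array 2, where it carried an outlier flag and was left out, and 52.6 on array 3, where it had no flag and was kept. Over all samples, with line 2 entered at its measured signal, the log2 difference at this probe was 0.84 (95% confidence interval -2.09 to 3.76, adjusted p = 0.756). Without line 2 it was 2.04 with an adjusted p of 0.0284, and between probes of this gene the correlation over the 6 arrays was -0.72. No single direction can therefore be given for 7Methyl3.

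**Figure D3:**
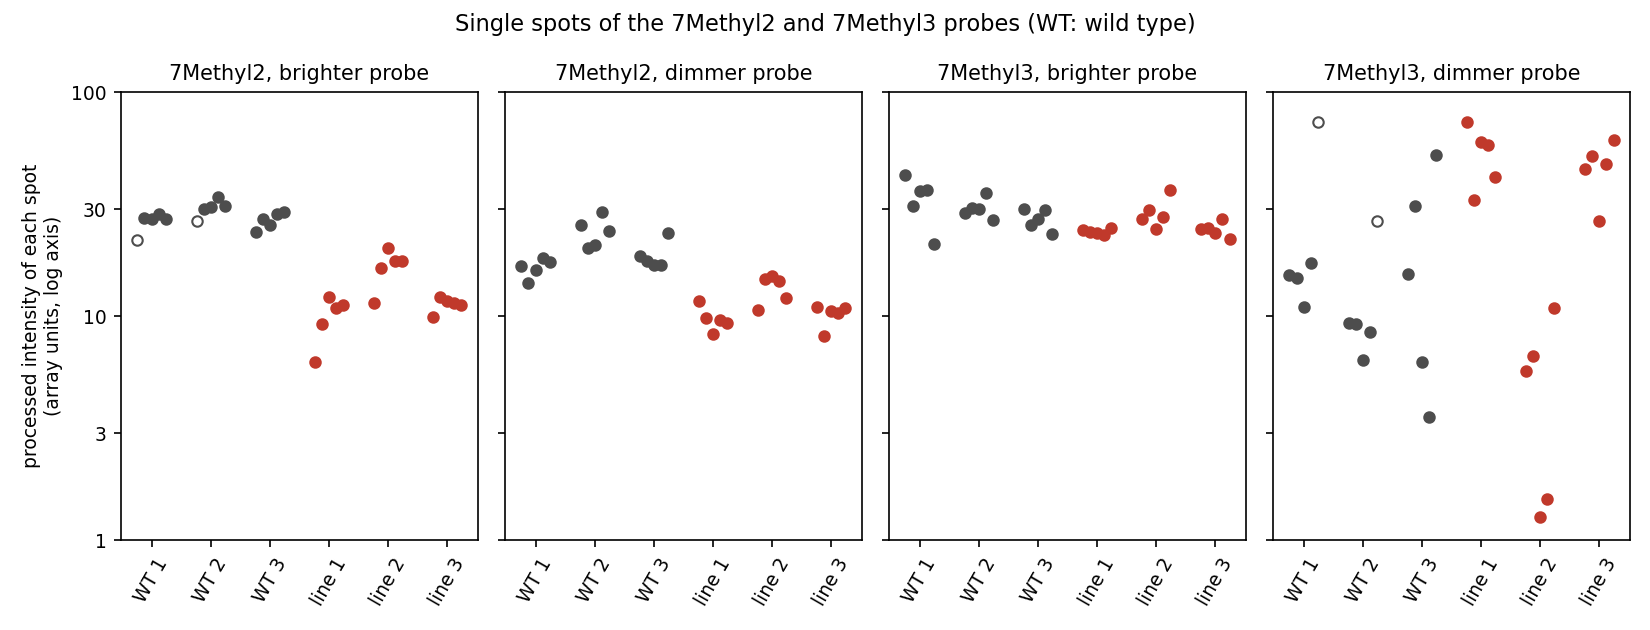
Processed intensity of each spot (vertical log axis, array units) is shown for the 5 spots of each 7Methyl2 and 7Methyl3 probe on the 3 wild type arrays (grey) and the 3 lines (red). Open circles carry an outlier flag and were left out. Spots of the lines lie below unflagged wild type spots at the brighter 7Methyl2 probe, and at the dimmer 7Methyl3 probe lines 1 and 3 lie between 26.5 and 73.2 while line 2 lies at 10.9 or below.

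The 3 other members on CM0058 did not pass the test either. 7Methyl9, gene 260, was nearly the same in both groups at its brighter probe, with 64, 60.3 and 60.9 in wild type and 61.3, 67 and 65.2 in the lines. Its log2 difference was -0.02 (adjusted p = 0.978), and the 95% confidence interval ran from -0.48 to 0.45. Its dimmer probe exceeded background clearly on 1 wild type array and in none of the lines and was not tested. 7Methyl4, gene 220, gave 9.16, 6.84 and 7.7 in wild type and 10.1, 10.7 and 10 in the lines. All lines lay above all wild type arrays, by 0.35 in the mean (95% confidence interval -0.13 to 0.84, adjusted p = 0.39), with 1 wild type array not well above background. 7Methyl5, gene 240, gave 7.44, 5.63 and 6.4 in wild type and 5.92, 4.71 and 7.46 in the lines, which overlap. Its difference was -0.16 (95% confidence interval -0.79 to 0.48), and it was well above background on 2 arrays of each group. The dimmer probes of 7Methyl4 and 7Methyl5 were well above background on 0 and 1 of the 6 arrays and were not tested.

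For 7Methyl8 the wild type arrays differed among themselves more than the lines did. Intensities at the brighter probe were 48.5, 70.2 and 45.4 in wild type and 72.5, 55.5 and 64.1 in the lines. Wild type array 2 was above arrays 1 and 3, and the wild type range of 0.72 on the log2 scale was wider than the 0.33 of the lines. The dimmer probe repeated this pattern, with 33.1, 54.6 and 34 in wild type and 55.5, 46.5 and 51.7 in the lines, and the 2 probes correlated at 0.96 over the 6 arrays. The log2 differences were 0.06 (95% confidence interval -0.62 to 0.75) and 0.17 (95% confidence interval -0.55 to 0.89). 7Methyl10 gave 8.85, 8.06 and 9.84 in wild type and 11.5, 6.91 and 8.44 in the lines, which overlap, with a difference of -0.07 (95% confidence interval -0.73 to 0.58). Its dimmer probe was well above background on 2 of the 6 arrays and was not tested.

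As a description of likeness, genes were ranked by Pearson correlation over the 6 arrays with the 2 members of smallest p, and these correlations include the difference between the groups. Each member was taken at its brightest probe. The closest genes were picked from 2487 tested genes over few samples, and the groups did not overlap for 36.5% of all genes. A high correlation here is therefore no sign of a link between genes. For 7Methyl2 the 3 closest genes were CYP96A_LjSGA_065095.1 (0.997), CYP707A_chr5.CM0852.320.nc (0.996), of the family of abscisic acid hydroxylases, and the transporter code MDR161_chr1.LjT01D01.100.nd (0.996). Their log2 fold changes were -1.59, -1.52 and -0.77, with adjusted p of 0.0918, 0.103 and 0.142. For 7Methyl7 they were WRKY_05_LjT10J09.60.nd (0.993), LjMYB36 (0.993) and MDR124_LjSGA_117599.1 (0.992), with log2 fold changes of -1.14, -1.24 and -1.06 and adjusted p of 0.045, 0.0514 and 0.05. The 2 probes of 7Methyl7 correlated at 0.19, so these neighbours describe its brighter probe only.

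The other codes of the isoflavonoid pathway on the array give the setting of the 7Methyl genes. Here and below, rose and fell mean an adjusted p under 0.05 (limma) at the brightest probe of a gene. Of 113 genes tested under 13 codes, 16 rose and 0 fell, where 2.21% of all genes rose and 1.09% fell. The median log2 fold change of the 113 genes was 0.55. A positive fold change, called or not, was found for 78 of them (69%), against 42.1% of all genes. By code this share ran from 28.6% for HID to 100% for PKR and for C4H or CYP73A. Among the 8 tested 7Methyl genes 0 rose and 0 fell, with a positive fold change for 2 and a negative one for 6. The difference between the codes was not tested. The count of the 13 codes rests on the same few samples and was 0 without wild type array 2, 1 without line 1, 2 without line 3 and 28 without line 2. The count was also 0 when the row was entered as a block. Since row 1 held no wild type array, that fit compares only line 1 with wild type and cannot separate row from line. These counts were known from an earlier analysis of the same data when the codes were listed.

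In the entry to phenylpropanoids, 4 of 14 PAL genes (phenylalanine ammonia-lyase) rose, with PAL04_chr1.CM0033.850.nc at 1.22 on the log2 scale (adjusted p = 0.0459), and 3 of 6 C4H or CYP73A genes (cinnamate 4-hydroxylase) rose, with medians of 1.14 and 1.55 over the tested genes of each code. In the code CoumLig, read as coumarate ligase, 3 of 15 rose, with a median of 0.15. At the chalcone step, 0 of 28 CHS genes (chalcone synthase) rose, with a median of 0.63, and 2 of 6 CHR genes (chalcone reductase) rose, with a median of 0.97. For the 5 PKR genes the median was 0.55 and for the 6 CHI genes (chalcone isomerase) 0.62, with none called. PKR3_chr2.CM0191.480.nc, which shares the identifier CM0191 with 7Methyl2, had a log2 fold change of 0.69 (limma adjusted p = 0.222), opposite in sign to 7Methyl2. PKR1, PKR4 and PKR5 with that identifier were also positive, at 0.554, 0.427 and 0.489.

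In the later codes, from isoflavone synthase onward, medians lay between -0.33 and 0.29. For the 4 CYP93C genes, the isoflavone synthase family, the median was 0.08 with none called. The smallest p there was that of CYP93C_chr4.CM0692.280.nc, at -1.91 (limma adjusted p = 0.223). For the 7 HID genes, which include 2-hydroxyisoflavanone dehydratases by their code, the median was -0.13. Of these, 2 had a positive fold change, with HID3 rising by 1.73 (adjusted p = 0.0499). For the 9 CYP81E or I2H genes (isoflavone 2'-hydroxylase) the median was -0.33. Of these, 3 had a positive fold change, with CYP81E_chr2.CM0250.70.nc rising by 1.90 (adjusted p = 0.0218). The medians were 0.29 for 8 IFR genes, -0.05 for 3 VR genes and -0.11 for 2 PTR genes, with 1, 1 and 0 genes that rose. IFR4_ (isoflavone reductase code) rose by 1.69 (adjusted p = 0.0208) and VR1_chr1.CM1255.320.nc (vestitone reductase code) by 2.52 (adjusted p = 0.0337). PTR3_chr3.CM0216.20.nd, with the smallest p of its code, was at -0.84 (limma adjusted p = 0.361). No other name on the array held the letters methyl or OMT, so no lignin or flavonoid methyltransferase could be set beside the 7Methyl genes.

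**Figure D4:**
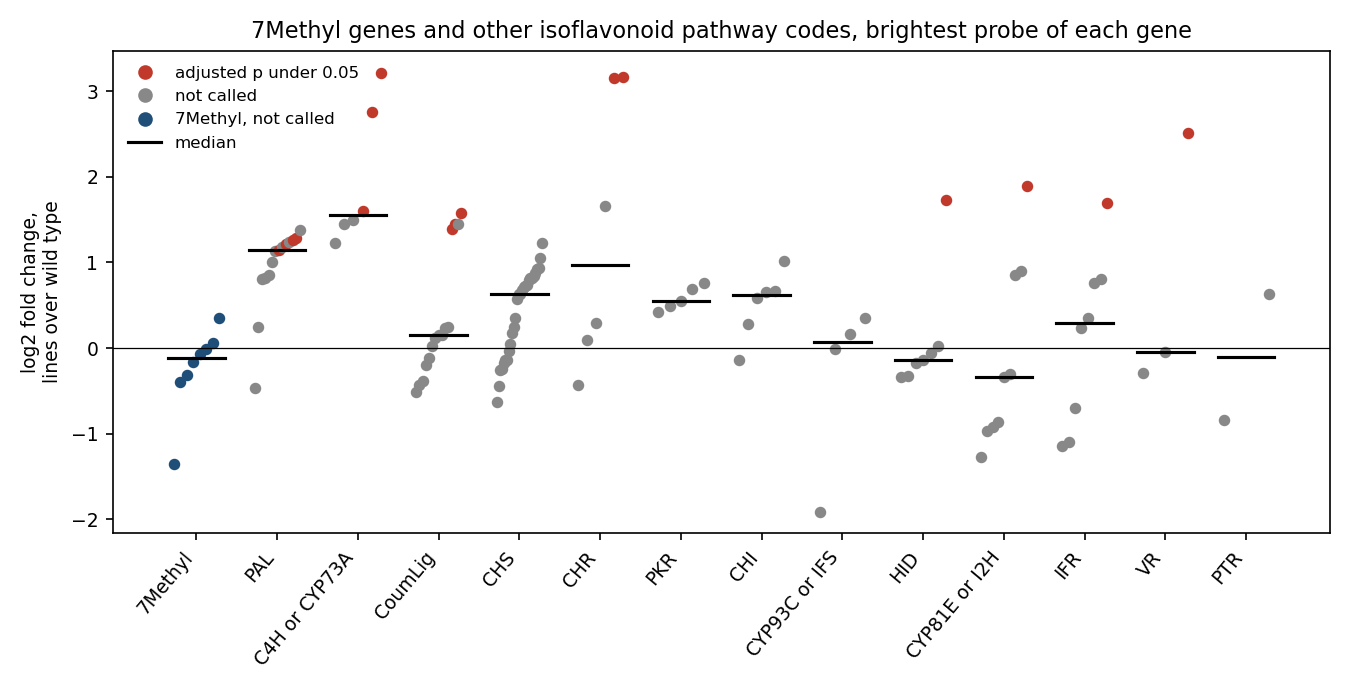
Log2 fold change of lines over wild type (vertical axis) is shown for each tested gene at its brightest probe, by name code (horizontal axis), with the median of each code as a bar and genes of adjusted p under 0.05 in red. The 7Methyl genes have a median of -0.12 and none in red, and the 13 other codes hold 16 genes in red, all above 0.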

How the data were processed

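The members and the lists of pathway codes were chosen with earlier results of these data known. The averaging of wild type arrays 1 and 3 also followed an earlier analysis of these data whose results were known. Scans of 1-colour arrays were processed by the authors with Agilent Feature Extraction 10.7.3.1, per the submitters' processing notes. Per the file headers, the background was subtracted from each deposited intensity and a spatial trend removed. The deposited value table held these intensities in 91068 of 91068 cells. Each array was scaled here to its 75th percentile of non-control spots, on a log2 scale, outlier-flagged spots were left out (32 to 78 per array) and the spots of a probe were averaged. No spot was saturated. The groups were compared by limma 3.58.1 (R 4.3.3), using lmFit and eBayes, with 3 residual degrees of freedom and 2.54 from the prior, and the number of arrays limits the precision. The script was tested on simulated data. Names sharing a locus are 1 gene, and the probe with the highest mean stands for it. All members are named. LjMYB14 and LjMYB76a check the labels, 3 genes are named by likeness to each of 2 members, and at most 1 gene per pathway code is named by smallest p. Alternatives were the counting of arrays, blocks, scaling, background correction, filters, flags, probe choice and leaving out arrays. The planned normexp setting on mean signals was run on median signals, since the files used here hold no mean signal, and it, row 2 alone and the pathway counts under each setting were chosen after seeing the files.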

Additional observations from a re-analysis of the deposited data

How the results depend on the processing

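Of 19 alternative settings, 7Methyl2 kept its negative sign in each, with log2 fold changes from -1.70 to -0.38 and adjusted p from 0.0212 to 0.438, and it passed the threshold in 3 of them. The number of 7Methyl probes called was 1 of 12 with all 6 arrays counted singly, where 639 of all 5039 probes were called. The number of 7Methyl genes called was 1 (limma adjusted p = 0.0212). Pathway genes counted below as higher or lower are those called at an adjusted p under 0.05 (limma). Replicate numbers are not stated to pair samples, and the deviations of same-numbered arrays correlated at 0.01, 0.17 and 0.073. With the replicate block and all 6 arrays counted singly, 2 7Methyl probes and 1 gene were called (7Methyl2, adjusted p = 0.0302), the pathway codes had 35 genes higher and 1 lower, and 373 probes of the array were called. Leaving out arrays gave 0 to 2 probes, 0 to 1 genes, a member median from -0.20 to -0.03, and 0 to 28 pathway genes higher and 0 to 1 lower. Without wild type arrays 1 and 3 together, 0 pathway genes were higher. The member median was -0.03 without scaling between arrays and -0.30 with spike-in scaling, which moved the median of all probes by -0.18. Pathway genes higher numbered 38 with 6 arrays counted singly (1 lower), 0 with the slide row as a block, 1 with spike-in scaling and 28 with normexp, against 16. The row as a block compares only line 1 with wild type. Array-wide, 173 probes were called, against 639 with 6 arrays counted singly, 2 with the row as a block, 19 with spike-in scaling, 110 with no filter on dim probes, 8 without wild type array 2, 14 without line 1, 77 without line 3, 439 without line 2 and 4 without wild type arrays 1 and 3. The cause was not tested. Leaving out 1 array moved 7Methyl9 between -0.06 and 0.03, 7Methyl10 between -0.26 and 0.08 and 7Methyl8 between -0.02 and 0.40. Some members changed sign without being called. 7Methyl10 gave 0.30 with the row as a block and in row 2 alone, 0.01 without scaling, 0.11 with flagged spots kept. 7Methyl9 gave 0.07 without scaling and 0.06 after quantile normalization. 7Methyl8 gave -0.12 with spike-in scaling, -0.02 with normexp and -0.27 without wild type arrays 1 and 3. Further from 0 in the main fit, 7Methyl4 (0.35) gave -0.03 with normexp, and 7Methyl3 (-0.31) gave 0.26 as the mean of its probes.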
